A study of Mus musculus with 6 samples.

Results

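C-type lectin and natural killer (NK) lectin-like receptor genes were compared between livers of diabetic and wildtype mice. The members were the measured genes whose symbols begin with Clec, Cd209, Klr, Colec or Ly75, together with Cd69, Cd72, Cd93, Fcer2a, Pla2r1 and Thbd. That rule gave 49 genes out of 909 named on the array, read by 55 of its 1246 probe sets. The 6 arrays, 1 sample each, came from liver RNA of male mice: 3 from healthy wildtype mice and 3 from mice with diabetes from insulin deficiency. The stated interest of the study was in enzymes of glycosaminoglycan synthesis, and the array carries glycan-related genes, lectins among them. Neither strain, age nor the way insulin was made deficient is named in the labels. The values are log2 expression from RMA, so a difference of 1 is a doubling, and the small number of arrays limits the precision. The hepatocyte markers Asgr1 and Asgr2, subunits of the asialoglycoprotein receptor, were bright on every array (12.19 to 12.46 and 9.32 to 9.89). Wildtype 2 stood more than 0.5 from every other array at 40 probe sets, of which 0 read a member.

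C-type lectins take their name from a calcium-dependent carbohydrate-recognition domain. Many of them bind mannose, fucose or galactose on microbes and on aged glycoproteins. In liver some members sit on Kupffer cells, the resident macrophages, such as Clec4f, or on the endothelium of the sinusoids, such as Clec4g. Hepatocytes carry C-type lectins too, among them Asgr1 and Asgr2, which lie outside the rule. The NK lectin-like receptors share the protein fold but bind mostly proteins, among them class I histocompatibility molecules, and set whether an NK cell attacks a target. Because whole liver was measured, fewer cells of a type and less RNA per cell cannot be told apart in any of these values.

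No member was called. With limma over all 1246 probe sets and Benjamini-Hochberg adjustment, 0 of 49 members passed an adjusted p of 0.05, where 0.321% of all probe sets did. The smallest adjusted p among members was 0.928. At an unadjusted p under 0.05 there were also 0 members, against 2.97% of all probe sets. With the replicate number as a block there were 0 members past the adjusted threshold and 1 at an unadjusted p under 0.05, Colec10, against 4.33% of all probe sets in that fit. Means were higher in diabetic liver for 27 members and lower for 22, or 55.1% higher against 50.5% of all named genes. The split changed with single arrays and was 19 higher and 30 lower without diabetic 3, 22 and 27 without wildtype 1, and 21 and 28 without both arrays numbered 3. Within replicate numbers, 6 members were higher in all 3 (12.2%, against 14.3% of named genes) and 7 were lower in all 3 (14.3%, against 11.4%). The median difference over the members was 0.016 on the log2 scale, against 0.0031 over all named genes.

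**Figure D1:**
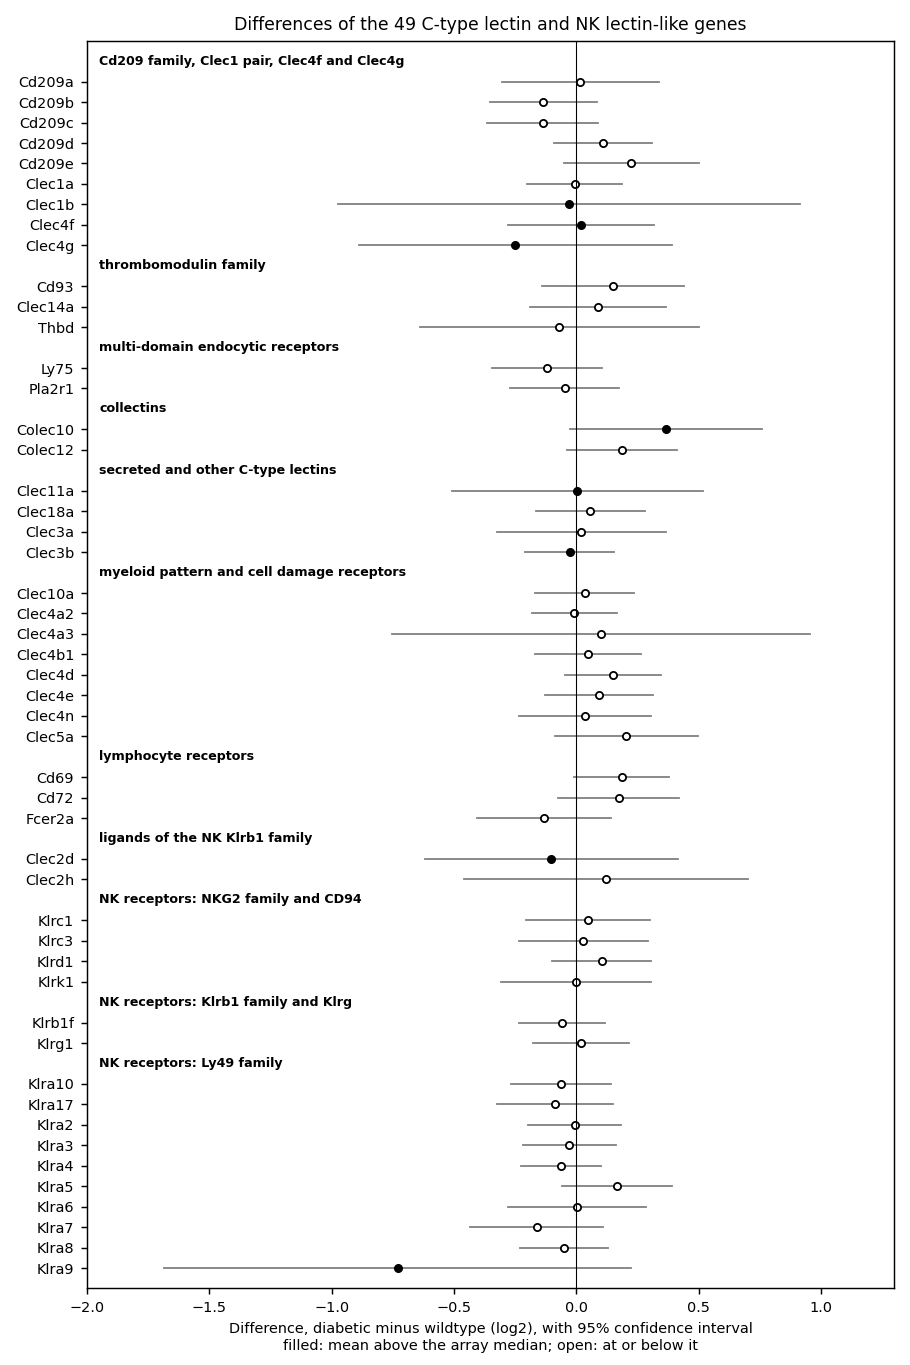
Log2 difference, diabetic minus wildtype, of each of the 49 members (points) with its 95% confidence interval (lines), arranged by role. Filled points mark the 8 members with a mean above the array median. Every interval includes 0, and Klra9, at -0.73, has the widest.

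The 95% confidence intervals of 39 of 49 members lay within 0.5 either side of 0, and those of 48 lay within 1, the exception being Klra9. Only 8 of 49 members, or 16.3%, had means above the median over all probe sets, 5.0, against 56% of all named genes. They were Clec11a, Clec1b, Clec2d, Clec3b, Clec4f, Clec4g, Colec10 and Klra9. For these 8 the interval stayed within 0.5 in 2 cases, Clec4f and Clec3b. A probe set near background understates a difference, so a narrow interval of a dim member bounds its signal rather than its RNA.

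**Figure D2:**
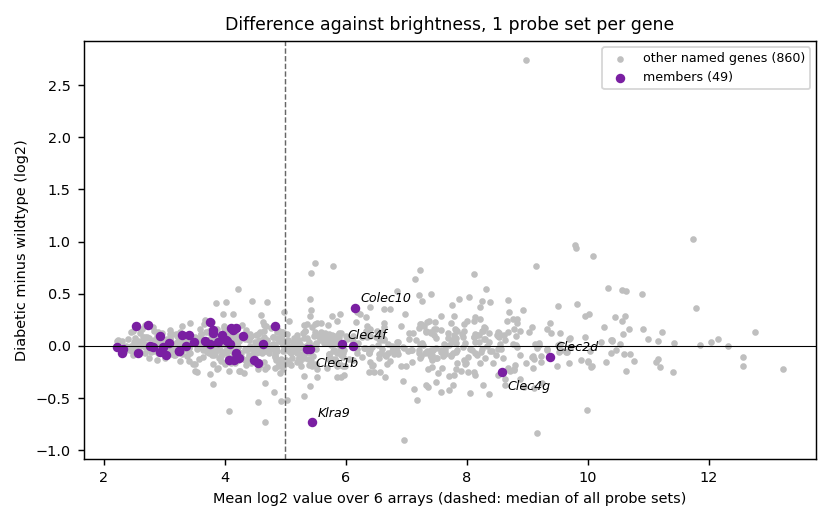
Log2 difference, diabetic minus wildtype, of each named gene against its mean log2 value over the 6 arrays, with the 49 members in purple and the other 860 named genes in grey; the dashed line is the median of all probe sets, 5.0. Most members lie left of that line, and among the members right of it the differences run from -0.73 (Klra9) to 0.37 (Colec10).

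The promoter windows shown are those of 3 of the 4 members with both arrays numbered 3 highest (Clec1b, Clec4a3 and Clec4g, without Clec3b) and of the member with the largest difference (Klra9). Other members had same-numbered arrays at an end too and are not shown. They are RefSeq windows of GRCm38.p6, from 250 bases before to 50 bases after the gene's start, 5′ to 3′ on the gene's strand. Capitals mark GAGGAA, a core of sites for the myeloid factor PU.1, and AGATAA, a core of GATA factor sites, searched on both strands; matches of the 2 motifs do not overlap. Clec1b lies at chr6:129397047-129397346 on the plus strand, Clec4a3 at chr6:122952265-122952564 on the plus strand (the more upstream of its 2 windows), Clec4g at chr8:3720602-3720901 on the minus strand and Klra9 at chr6:130193063-130193362 on the minus strand.
Clec1b: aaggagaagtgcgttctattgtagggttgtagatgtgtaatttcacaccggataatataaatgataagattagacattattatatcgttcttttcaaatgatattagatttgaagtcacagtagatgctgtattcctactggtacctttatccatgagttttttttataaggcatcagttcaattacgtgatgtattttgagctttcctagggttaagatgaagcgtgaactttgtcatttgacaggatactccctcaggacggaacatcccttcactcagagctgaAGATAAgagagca
Clec4a3: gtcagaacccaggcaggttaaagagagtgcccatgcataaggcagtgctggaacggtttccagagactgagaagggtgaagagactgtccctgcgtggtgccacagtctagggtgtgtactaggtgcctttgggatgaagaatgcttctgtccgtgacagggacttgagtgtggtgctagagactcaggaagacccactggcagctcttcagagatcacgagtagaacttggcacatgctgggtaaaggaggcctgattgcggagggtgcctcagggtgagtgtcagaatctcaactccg
Clec4g: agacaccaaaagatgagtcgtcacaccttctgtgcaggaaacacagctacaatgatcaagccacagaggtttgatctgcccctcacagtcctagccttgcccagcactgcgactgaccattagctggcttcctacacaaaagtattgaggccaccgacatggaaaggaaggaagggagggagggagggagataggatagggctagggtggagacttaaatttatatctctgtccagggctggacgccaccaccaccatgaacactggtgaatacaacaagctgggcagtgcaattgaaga
Klra9: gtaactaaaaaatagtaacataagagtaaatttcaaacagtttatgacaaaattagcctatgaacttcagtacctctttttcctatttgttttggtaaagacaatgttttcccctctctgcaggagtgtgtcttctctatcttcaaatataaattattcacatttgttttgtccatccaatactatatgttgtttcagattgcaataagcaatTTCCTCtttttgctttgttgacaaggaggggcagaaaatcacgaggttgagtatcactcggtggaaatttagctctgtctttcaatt
The Clec1b window held 1 AGATAA and the Klra9 window 1 GAGGAA, on the opposite strand, while the Clec4a3 and Clec4g windows held neither. Windows were found for 37 of the 49 members, 42 in all. GAGGAA stood in 21 of these 42 windows, or 50%, against 28.3% of all 32851 windows, and AGATAA in 11.9% against 11.2%. Promoters of neighbouring paralogs such as the Klra genes are related in sequence, so these windows are not independent of each other. A match describes letters only.

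Kupffer cell and sinusoidal receptors came first by role. Clec4f, a galactose-binding receptor that defines Kupffer cells, was 6.05, 5.81 and 5.91 in wildtype 1 to 3 and 5.71, 6.07 and 6.03 in diabetic 1 to 3. The groups overlapped fully, and the difference was 0.02 (SE 0.12, 95% confidence interval -0.28 to 0.32; limma adjusted p = 0.99). A 1.41-fold change, 0.5 on the log2 scale, lay outside that interval in both directions. Clec4g, a receptor of sinusoidal endothelium, was 8.34, 8.72 and 9.05 in wildtype and 8.23, 8.17 and 8.96 in diabetic liver. Diabetic 3 lay among the wildtype arrays and the other diabetic arrays below all of them. Its difference was -0.25 (SE 0.27, interval -0.89 to 0.39; adjusted p = 0.942), and it was -0.50 without diabetic 3 and -0.076 without wildtype 3. Clec4g was lower in the diabetic array of each replicate number, by -0.10, -0.56 and -0.091.

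Clec1b, the podoplanin receptor best known from platelets, was 5.26, 5.04 and 5.98 in wildtype and 5.06, 4.93 and 6.19 in diabetic liver. The array numbered 3 was the highest of each group, and the group means of 5.43 ± 0.49 and 5.40 ± 0.69 (SD, n = 3) were alike beside that spread. The difference was -0.03 (interval -0.98 to 0.91) and turned to 0.24 without wildtype 3. Its relative Clec1a, an endothelial and myeloid receptor, stayed between 2.89 and 3.04 on the 6 arrays.

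The Cd209 genes are the mouse counterparts of DC-SIGN, receptors for mannose and fucose. All 5 measured members had means below the array median, and their differences ran from -0.14 to 0.22. Cd209c was 4.12, 4.17 and 4.11 in wildtype and 4.05, 4.10 and 3.83 in diabetic liver, so that all diabetic values were lower, by -0.14 on average (adjusted p = 0.928). Cd209d, at 3.78, 3.99 and 3.93 against 4.01, 4.01 and 4.01, was without overlap in the other direction, with a difference of 0.11. Cd209e, at 3.60, 3.71 and 3.63 against 3.65, 4.02 and 3.94, gave 0.22 (SE 0.11), with diabetic 1 inside the wildtype range. Cd209a, a dendritic cell receptor, differed by 0.02 and Cd209b, expressed on marginal zone and sinusoidal cells, by -0.13, or -0.0033 at its other probe set. Groups without overlap were thus found for Cd209c, Cd209d, Cd69 and Klra4, 2 in each direction (Cd209d and Cd69 higher, Cd209c and Klra4 lower). That is 2 of 49 each way, against 4.4% of named genes without overlap in the higher and 3.3% in the lower direction.

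**Figure D3:**
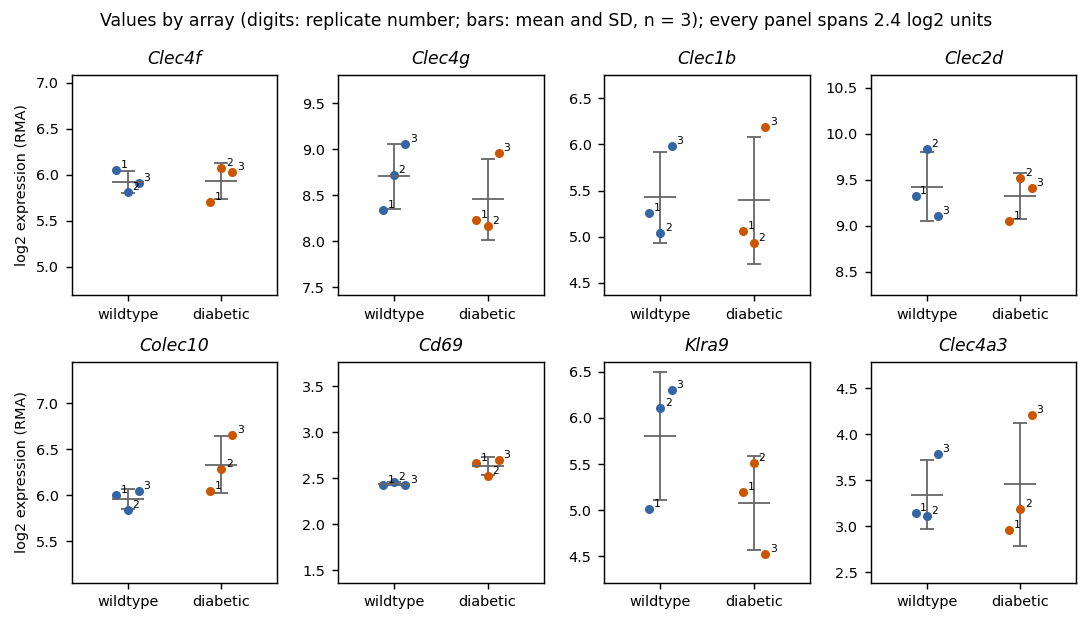
Log2 expression of 8 members on each array, wildtype in blue and diabetic in orange, with the replicate number beside each point and bars for mean and SD (n = 3 per group); every panel spans 2.4 log2 units. Clec1b, Clec4g, Clec4a3 and, by a small margin in wildtype, Colec10 are highest on the array numbered 3 in both groups. Of the 8 members Cd69 alone shows groups that do not overlap.

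The collectins, which join a collagen-like stalk to a lectin domain, both had higher means in diabetic liver. Colec10, a liver collectin secreted into plasma that can start the lectin pathway of complement, was 6.0, 5.84 and 6.05 in wildtype and 6.05, 6.29 and 6.66 in diabetic liver. Diabetic 3 was the highest array, and diabetic 1 lay level with wildtype 3. The difference of 0.37 (SE 0.16, interval -0.02 to 0.76) was the largest of any member in the higher direction, with a limma adjusted p of 0.928 and an unadjusted p of 0.0619. With the replicate block the unadjusted p was 0.0485 and the adjusted p 0.822. The difference was 0.20 without diabetic 3 and 0.51 without diabetic 1. Its probe set carries the suffix s, which marks probes shared by several transcripts. Colec12, a membrane scavenger receptor, was 4.87, 4.68 and 4.67 against 4.97, 4.99 and 4.83, with wildtype 1 above diabetic 3. It differed by 0.19 (SE 0.09; adjusted p = 0.928), and by 0.22 at its other probe set, where the unadjusted p was 0.107, and 0.0364 with the replicate block (limma adjusted p = 0.822).

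The thrombomodulin family on endothelium gave small differences beside their spread. Thbd, thrombomodulin, which turns thrombin towards activating protein C, was 4.65, 3.95 and 4.04 in wildtype and 4.20, 3.80 and 4.43 in diabetic liver, a difference of -0.07 that became 0.15 without wildtype 1. Cd93, an endothelial and myeloid receptor, differed by 0.15, and by 0.031 without diabetic 3, its highest array at 4.45. Clec14a, an endothelial adhesion receptor, differed by 0.09. The multi-domain endocytic receptors Ly75 (DEC-205, an antigen uptake receptor of dendritic cells) and Pla2r1 (a receptor for secreted phospholipase A2) differed by -0.12 and -0.05. Among secreted and matrix-bound members, Clec3b (tetranectin, which binds plasminogen) stayed between 5.31 and 5.42 on the 6 arrays. Clec11a, a growth factor of bone marrow and bone, had means of 6.12 ± 0.27 in wildtype and 6.13 ± 0.35 in diabetic liver. Clec3a and Clec18a differed by 0.02 and 0.06.

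Of 8 myeloid pattern receptors, which sense microbial and dead-cell ligands, 7 had higher means in diabetic liver and 1, Clec4a2, a lower one, with a median difference of 0.07 and 0 called. That count rested on 1 array: without diabetic 3 it was 3 higher and 5 lower, with a median of -0.02, and it was also 3 and 5 without both arrays numbered 3. All 8 had means below the array median. Clec5a, which signals through an adaptor in macrophages and neutrophils, was 2.82, 2.46 and 2.60 in wildtype and 2.78, 2.74 and 2.98 in diabetic liver, a difference of 0.20 (SE 0.12; adjusted p = 0.928). Clec4d, a partner of the mycobacterial glycolipid receptor Clec4e, was 3.80, 3.70 and 3.67 against 3.92, 3.92 and 3.79, a difference of 0.15 (SE 0.08). In both genes wildtype 1 lay above the lowest diabetic array, so the groups overlapped. Cxcr2, the 1 neutrophil marker measured of 5 listed, was 5.08 to 5.98 in wildtype and 5.02 to 5.38 in diabetic liver, and its part in these values was not tested. Clec4e differed by 0.09, Clec4n (Dectin-2) by 0.04, Clec4b1 by 0.05 and the macrophage galactose lectin Clec10a by 0.03. Clec4a3, of the Dcir family, was 3.14, 3.11 and 3.78 in wildtype and 2.96, 3.19 and 4.21 in diabetic liver, with the array numbered 3 highest in each group. It differed by 0.10, between -0.28 without diabetic 3 and 0.35 without diabetic 1.

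Clec1b, Clec4a3 and Clec4g, together with Clec3b by a small margin, had both arrays numbered 3 above all the other arrays. These 4 genes were 8.16% of members, and 7.15% of named genes had that pattern. Counting top and bottom over the 3 numbers, the 49 members had 19 same-numbered pairs at an end, a ratio of 38.8%. For the 909 named genes there were 404 such pairs, a ratio of 44.4%. A gene with pairs at both ends counts at each, as do Clec11a, Clec1b and Clec2h, so these ratios are not shares of genes. Of the 6 measured Kupffer cell markers that are not members, 5 had the pattern of both arrays numbered 3 highest. Timd4, a phagocytic receptor, did not (3.65, 3.46 and 3.57 in wildtype, 3.41, 3.29 and 3.89 in diabetic liver). Among the 5, Siglec1 (4.84 and 4.88 on the arrays numbered 3, up to 4.81 on the others) and Siglech (3.10 and 3.19, up to 3.07) had it by small margins. Csf1r, the growth factor receptor of macrophages, was 6.85 and 7.50 on wildtype 3 and diabetic 3 against 6.23 to 6.44 on the others. Adgre1, a surface receptor that marks mouse macrophages, was 4.32 and 5.18 against 3.81 to 3.89, and the mannose receptor Mrc1 was 7.14 and 7.28 against 6.54 to 6.82. Over the 6 measured of 13 listed Kupffer cell markers, leaving out the member Clec4f, the mean log2 value was 4.97 and 5.32 on the arrays numbered 3 and between 4.59 and 4.70 on the others. That list includes Siglech, better known from plasmacytoid dendritic cells, at 2.98 to 3.19. By group it ran from 4.70 to 4.97 in wildtype and from 4.59 to 5.32 in diabetic liver, so the groups overlapped. The endothelial markers Pecam1 and Mrc1, 2 measured non-members of 10 listed, had a mean of 6.55 and 6.73 on the arrays numbered 3 against 6.19 to 6.31. The member Clec4f did not follow either, at 5.91 and 6.03 on those arrays and 5.71 to 6.07 on the others. The part of cell content in the levels of Clec1b, Clec4a3 and Clec4g was not tested.

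**Figure D4:**
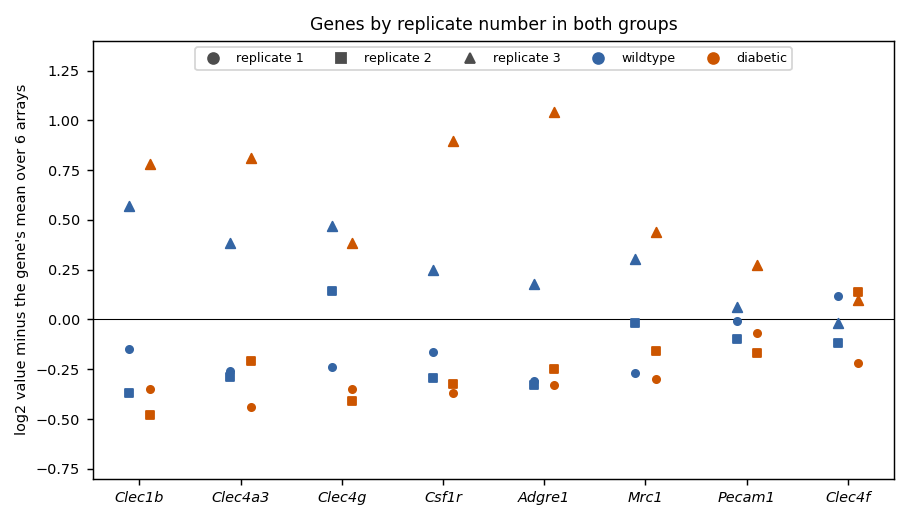
Log2 value of 8 genes on each array minus the gene's own mean over the 6 arrays; colours give the group and symbols the replicate number (triangles for number 3). Both triangles are the highest points for Clec1b, Clec4a3, Clec4g, Csf1r, Adgre1, Mrc1 and Pecam1, and not for Clec4f.

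Receptors of lymphocytes followed. Cd69, an early activation receptor of T and NK cells, was 2.43, 2.46 and 2.43 in wildtype and 2.67, 2.52 and 2.70 in diabetic liver. All diabetic values lay above all wildtype values, by 0.19 on average (SE 0.08, interval -0.01 to 0.38; limma adjusted p = 0.928). The probe set was among the dimmest of the array. Cd72, an inhibitory receptor of B cells, was 3.87, 4.0 and 4.20 against 4.17, 4.25 and 4.17, a difference of 0.17 with wildtype 3 inside the diabetic range. Fcer2a, the low-affinity IgE receptor CD23 of B cells, was 4.02, 4.29 and 4.34 against 3.97, 4.19 and 4.08, a difference of -0.13.

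Clec2d, the Clr-b ligand through which normal cells restrain NK cells, was 9.33, 9.84 and 9.11 in wildtype and 9.05, 9.52 and 9.41 in diabetic liver. Wildtype 2 was the highest array, diabetic 1 the lowest, and the groups overlapped. The difference of -0.10 (SE 0.22, interval -0.62 to 0.42; adjusted p = 0.99) turned to 0.11 without wildtype 2. Clec2h, of the same ligand family, was 3.26, 4.12 and 3.84 against 3.58, 4.08 and 3.93, a difference of 0.12 that was -0.12 without wildtype 1. Klrb1f, of the NK receptor family that binds Clec2 proteins, stayed between 2.88 and 3.02 on the 6 arrays.

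Activating and inhibitory NK receptors of the NKG2 group were all dim. Klrk1 (NKG2D), which detects stress-induced ligands, was 2.62, 2.98 and 2.71 in wildtype and 2.87, 2.82 and 2.60 in diabetic liver, a difference of -0.0026 (interval -0.31 to 0.30). Klrd1 (CD94) was 3.26, 3.13 and 3.30 against 3.36, 3.39 and 3.26, a difference of 0.10, and its inhibitory partner Klrc1 (NKG2A) differed by 0.05. Klrc3 differed by 0.03, and Klrg1, an inhibitory receptor for cadherins on mature NK and T cells, by 0.02. Il2rb, the 1 NK marker measured outside the members, was 4.36 to 4.61 in wildtype and 4.45 to 4.58 in diabetic liver. All 4 measured of 10 listed NK cell markers had means below the array median.

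The Ly49 receptors, the Klra genes, are related paralogs, many of which bind class I molecules. Of the 10 measured, 8 had lower and 2 higher means in diabetic liver, with a median difference of -0.06, and 6 of the 10 were read by a probe set whose suffix marks probes shared with other transcripts, so values of single genes are uncertain. With the other probe set of the 4 that have one, the split was 5 and 5 and the median -0.0029, since Klra3, Klra4 and Klra10 had higher means there (0.07, 0.02 and 0.04). Klra9 (Ly49I), whose probe set has the suffix s and is among the 6 with shared probes, was 5.01, 6.11 and 6.30 in wildtype and 5.20, 5.51 and 4.52 in diabetic liver. Wildtype 1 lay among the diabetic arrays, and the other wildtype arrays above all of them. Its difference of -0.73, 1.66-fold lower in diabetic liver, was the largest of any member, with an SE of 0.40, an interval of -1.69 to 0.22 and a limma adjusted p of 0.928. It ran from -1.13 without wildtype 1 to -0.45 without diabetic 3, and was -0.21 without both arrays numbered 3. Klra7 (Ly49G) was 4.46, 4.75 and 4.69 against 4.32, 4.51 and 4.59, a difference of -0.16 (SE 0.11). Klra5 (Ly49E) was 4.19, 4.06 and 4.05 against 4.18, 4.21 and 4.41, a difference of 0.17 with wildtype 1 just above diabetic 1. At its other probe set Klra5 was 3.62, 3.59 and 3.33 against 3.80, 3.65 and 3.84, without overlap, a difference of 0.25 (adjusted p = 0.928). Klra4 (Ly49D, an activating receptor) was 2.34, 2.35 and 2.31 against 2.25, 2.28 and 2.27, without overlap. The remaining members Klra2, Klra3, Klra6, Klra8, Klra10 and Klra17 differed by -0.09 to 0.0014.

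Many members are neighbours in the genome, which the rule did not use. By the GRCm38.p6 gene order, 38 of 49 lay in 5 runs of members less than 2 Mb apart. The largest was the NK gene complex, 20 members from Clec2h to Klra2, of which 7 had higher and 13 lower means (median difference -0.02). That split was 4 and 16 without wildtype 1, and 10 and 10 with the other probe set of each gene that has one. A run of 7 from Klrg1 to Clec4e had 6 higher means and 1 lower (median 0.05), but 2 higher and 5 lower without diabetic 3, and likewise without both arrays numbered 3. The run of 7 with Fcer2a, Clec4g and the Cd209 genes had 3 higher and 4 lower (median -0.13). Its median was -0.0033 with the other probe set of Cd209b. With 1 array left out it lay between -0.14 and -0.057, and without both arrays numbered 3 it was -0.055, with 2 higher and 5 lower. With 0 calls in any run, these are counts of means only.

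C-type lectin domain genes outside the rule were set beside the members, in a list chosen with earlier results of these data known. Of 29 measured, 1 was called, where 0.321% of all probe sets were. It was Mbl2, a mannose-binding lectin that hepatocytes secrete, at 11.06, 11.15 and 11.47 in wildtype and 12.16, 12.34 and 12.26 in diabetic liver (difference 1.03, limma adjusted p = 0.0412, and 0.142 with the replicate block). The other 28 were not called. After Mbl2 the smallest unadjusted p belonged to its relative Mbl1, with a difference of 0.27 (adjusted p = 0.928). Of the 29 genes 11 had higher and 18 lower means, with a median of -0.01. Whether members differed from these genes was not tested.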

How the data were processed

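Per the submitters' processing notes the authors made the deposited values with RMA (background correction, normalization between arrays and probe summary). No version or setting of RMA is recorded there. These deposited values were read as log2 expression, since they ran from 2.03 to 13.45 with array medians of 4.93 to 5.06. Normalization between arrays hides a change shared by most genes. No detection call was used.

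Probe sets were named through RefSeq accessions in a GRCm38.p6 gene table. Of 1246 probe sets 984 carried such an accession, of which 963 matched and 21 did not. The 283 unnamed probe sets, most of them without an accession, could not be searched for members. Clec7a, Clec9a, Klrb1c, Klra1 and Colec11 were not analysed here. Where a gene had several probe sets, the 1 brightest over the 6 arrays was used. The groups were tested against each other in limma 3.58.1 (lmFit, eBayes, R 4.3.3) over all probe sets, with Benjamini-Hochberg adjustment and a threshold of 0.05; the scripts were tested on simulated data. The labels do not state that each array came from its own animal, so p-values measure the spread between these samples. Named members were any called, any without overlap, the 8 smallest p, the 4 largest differences each way and 19 set genes; the other members are named to account for all 49, after their values were seen. The members, lists and motifs were chosen with earlier results of these data known.

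Deviations of same-numbered arrays from their group means correlated at 0.397, 0.138 and 0.162 for numbers 1, 2 and 3, all above the 0.1 set for treating numbers as pairs. The fit without the block nevertheless stayed the main one, since the series states no covariate, and the blocked fit was an alternative. Results of the blocked fit are printed for members where they move a p across 0.05. The labels do not say what a number stands for. The SEs and intervals printed for members are of the fit without the block and include any spread between numbers. With the block the SE was 0.11 against 0.39 for Clec1b, 0.14 against 0.35 for Clec4a3 and 0.13 against 0.27 for Clec4g. For Klra9 it was 0.40 in both fits. Alternatives were a median shift, quantile normalization, a filter on the dimmest 25% of probe sets, trend and robust eBayes, no moderation, array weights, the block, other probe sets, a threshold of 0.10 and leaving out each array. Leaving out both arrays numbered 3 was added after seeing the data.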

Additional observations from a re-analysis of the deposited data

How the results depend on the processing

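The count of 0 called members held under every alternative run, and the smallest adjusted p of a member over all of them was 0.686. Only 24 of the 49 members passed the filter on dim probe sets. At an unadjusted p under 0.05 limma gave between 0 and 3 members over these fits, the 3 being Clec5a, Klra9 and Colec12 without wildtype 1. The share of all probe sets at that threshold was counted only for the main fit (2.97%) and the blocked fit (4.33%), so the counts of the other fits have no such share beside them. The count of called probe sets over the whole array, 4, fell to 0 with the replicate block, with trend and robust eBayes, without moderation and without both arrays numbered 3, and was between 0 and 1 when 1 array was left out. The cause was not tested, but fits without an array rest on fewer samples. The replicate block changed no call of a member. The median difference over the members was 0.016; it lay between -0.016 and 0.047 with 1 array left out and was -0.023 without both arrays numbered 3. Uncalled differences changed sign for 3 members at the other probe set, Klra3 (0.066), Klra4 (0.020) and Klra10 (0.036), for Klrk1, of the 29 members of the naming rule, after the median shift (0.0044) and with array weights (0.028), and for 10 members without both arrays numbered 3, Cd209a (-0.055), Clec10a (-0.024), Clec18a (-0.033), Clec1a (0.021), Clec4a3 (-0.057), Clec4b1 (-0.0012), Clec4f (-0.034), Clec4n (-0.079), Klrg1 (-0.026) and Klrk1 (0.050). With 1 array left out, differences that changed sign among these 29 ran from -0.074 to 0.16 for Cd209a, -0.024 to 0.072 for Clec10a, -0.43 to 0.24 for Clec1b, -0.26 to 0.11 for Clec2d, -0.049 to 0.13 for Clec4f, -0.028 to 0.13 for Klrc1, -0.0090 to 0.065 for Klrg1, -0.077 to 0.10 for Klrk1, -0.10 to 0.0049 for Pla2r1 and -0.21 to 0.15 for Thbd. Of all 49 members, 22 changed sign in at least 1 of these 6 refits and 27 did not. Signal over background limits the dim members.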
